A study of Mus musculus with 8 samples.

Results

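The motile cilium genes described here were taken from the gene symbols of the array annotation. They are the genes whose symbol starts with Dnah, Dnai, Cfap, Rsph, Spag, Drc or Tekt followed by a digit, together with Foxj1, Hydin, Tppp3, Mlf1, Ccdc153, Ccno and Mcidas. Of 22180 named genes, 77 met this rule: 32 Cfap, 12 Spag, 11 Dnah, 7 Rsph, 5 Tekt and 3 Drc genes, and the 7 genes fixed by name. Of the 77 genes, 71 had 1 probe set (a group of short DNA probes read as a unit), and for the other 6 the probe set was selected on its mean log2 value, the brightest being kept. The genes themselves were chosen by symbol and not by a measured change, but the set was proposed with the KCl results of these arrays known, so the KCl changes are given as a description. A symbol is not a function: Spag5, a spindle protein, Spag9, a scaffold of JNK signalling, Spag4, a nuclear envelope protein, and Spag11a and Spag11b, defensin-like genes of the epididymis, carry a sperm-antigen symbol and are not parts of the axoneme.

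Cultured hippocampal neurons of C57BL/6J mice, an inbred laboratory strain, were prepared from E18.5 embryos and kept for 11 days in vitro in medium that held AraC, which kills dividing cells. The 8 arrays fell into 2 groups: 4 cultures held in 55 mM KCl for 4 h, which depolarises neurons, and 4 untreated cultures. Each group has replicate numbers 1 to 4, and each array has a mouse number of its own. Arrays with the same replicate number have mouse numbers close to each other, but nothing in the labels says that they share a litter or a day. RNA was labelled with the Affymetrix WT Plus kit, and the values are log2 RMA values of whole-transcript arrays, whose medians were 4.44 to 4.48. The number of arrays limits the precision of all values below, and levels of different probe sets are not compared with each other. In the same fit the depolarisation markers Fos, Fosb, Junb, Nr4a1, Npas4 and Egr4 were higher in the KCl arrays, by log2 changes of 2.28 to 5.43 (6 of 6, limma adjusted p = 0.00075 to 0.0324). Neuron markers averaged 9.48 to 10.13 over 13 genes in every array, and astrocyte markers 8.04 to 8.68 over 8 genes. Both arrays numbered 1 stood apart from the other 6 in the genes described here, so results are also given without them.

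A motile cilium is built on an axoneme, a ring of doublet microtubules around a central pair. Dynein motors, held on the doublets as outer and inner arms, slide the doublets against each other, and the nexin-dynein regulatory complex, the radial spokes and the central pair turn that sliding into a beat. Mcidas and Ccno act early in the programme that makes a multiciliated cell, and Foxj1 is the transcription factor that switches on axonemal genes, together with factors of the Rfx family. In the brain, motile cilia are known from ependymal cells and the choroid plexus, while neurons and astrocytes carry a primary cilium that does not beat. RNA of whole cultures was measured, so a lower level of RNA per cell and fewer cells of a type cannot be told apart.

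The promoters of 4 members are shown first because they hold the letters to which Rfx factors bind, the X-box, in the last bases before the start of the gene. They are the 4 genes of smallest p between replicate numbers (below) with an X-box match wholly before the start, and the sequences are from RefSeq, assembly GRCm38.p6, in the direction of the gene, with the X-box match in capitals.
Cfap161: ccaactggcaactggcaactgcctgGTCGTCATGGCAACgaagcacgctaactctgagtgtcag
Cfap52: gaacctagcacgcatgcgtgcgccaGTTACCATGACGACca
Cfap44: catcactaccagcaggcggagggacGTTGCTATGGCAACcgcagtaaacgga
Tekt1: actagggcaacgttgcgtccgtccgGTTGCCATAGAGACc
The stretches lie at chr7:83794848-83794911 (minus strand), chr11:67965643-67965683 (minus strand), chr16:44394747-44394798 (plus strand) and chr11:72361883-72361922 (minus strand). The matches end 34, 3, 14 and 2 bases before the start in the same order. Promoters of 65 of the 77 genes were in the table (250 bases before to 50 bases after each start), and 11 of the 65 held an X-box match on either strand, 16.9%, against 1.1% of 27025 genes. The X-box core GTTGCC, searched for by itself on either strand, was in 27 of 65 (41.5%), against 14.1% of all genes. In 4 members both were found, but an X-box match can itself hold the core, as in Cfap161, Cfap44 and Tekt1 above. The forkhead letters TGTTTAC were in 5 of 65 (7.69%), against 4.05% of all genes. Of the 65 members, 30 differed between replicate numbers as described below, and 8 of these 30 held the X-box match, against 3 of the other 35. For GTTGCC the counts went the other way, at 11 of 30 against 16 of 35. They were 2 against 3 for TGTTTAC, and 3 against 1 for TGACGTCA (below). These motifs were picked after the values were seen, base composition was not matched, and a match shows letters, not binding.

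Motile cilium genes were high in both arrays numbered 1, the KCl array as well as the untreated one, and this was the main way in which they varied. In 48 of 77 members (62.3%) both arrays numbered 1 lay above all other 6 arrays, against 8.73% of all genes. For the other numbers the counts were 1 of 77 for number 2 (2.92% of all genes), 0 for number 3 (3.73%) and 0 for number 4 (3.55%). Both arrays of a number lay below the other 6 in 2 members for number 1 (8.01% of all genes), 2 for number 2 (2.68%), 7 for number 3 (2.56%) and 1 for number 4 (5.59%). Tested over all genes for any difference between the 4 numbers, in a model that also held the treatment, 37 of 77 members passed (limma F-test, adjusted p under 0.05), against 4.26% of all genes. All 37 had their highest mean at number 1 and had both arrays numbered 1 above the other 6.

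The mean of the arrays numbered 1 exceeded that of the other 6 by a median of 1.08 on the log2 scale over the 77 members, against -0.01 over all genes, and by 0.80 to 3.19 over the 37 members that passed. The replicate number took a median of 88% of a member's sum of squares over the 8 arrays, against 46.8% over all genes, and the treatment took 2.24%, against 10.7%. When the arrays numbered 1 were left out, an alternative chosen after seeing the data, 0 of 77 members passed between numbers 2, 3 and 4, while 0.0721% of all genes did. With number 2, 3 or 4 left out instead, 34 to 37 members passed, against 2.78% to 4.01% of all genes, so the calls depended on number 1. Since so few genes of any kind passed without number 1, that fit cannot show whether members differ between numbers 2, 3 and 4. Number 1 was singled out after the values were seen, and the labels do not say how its cultures differed.

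**Figure D1:**
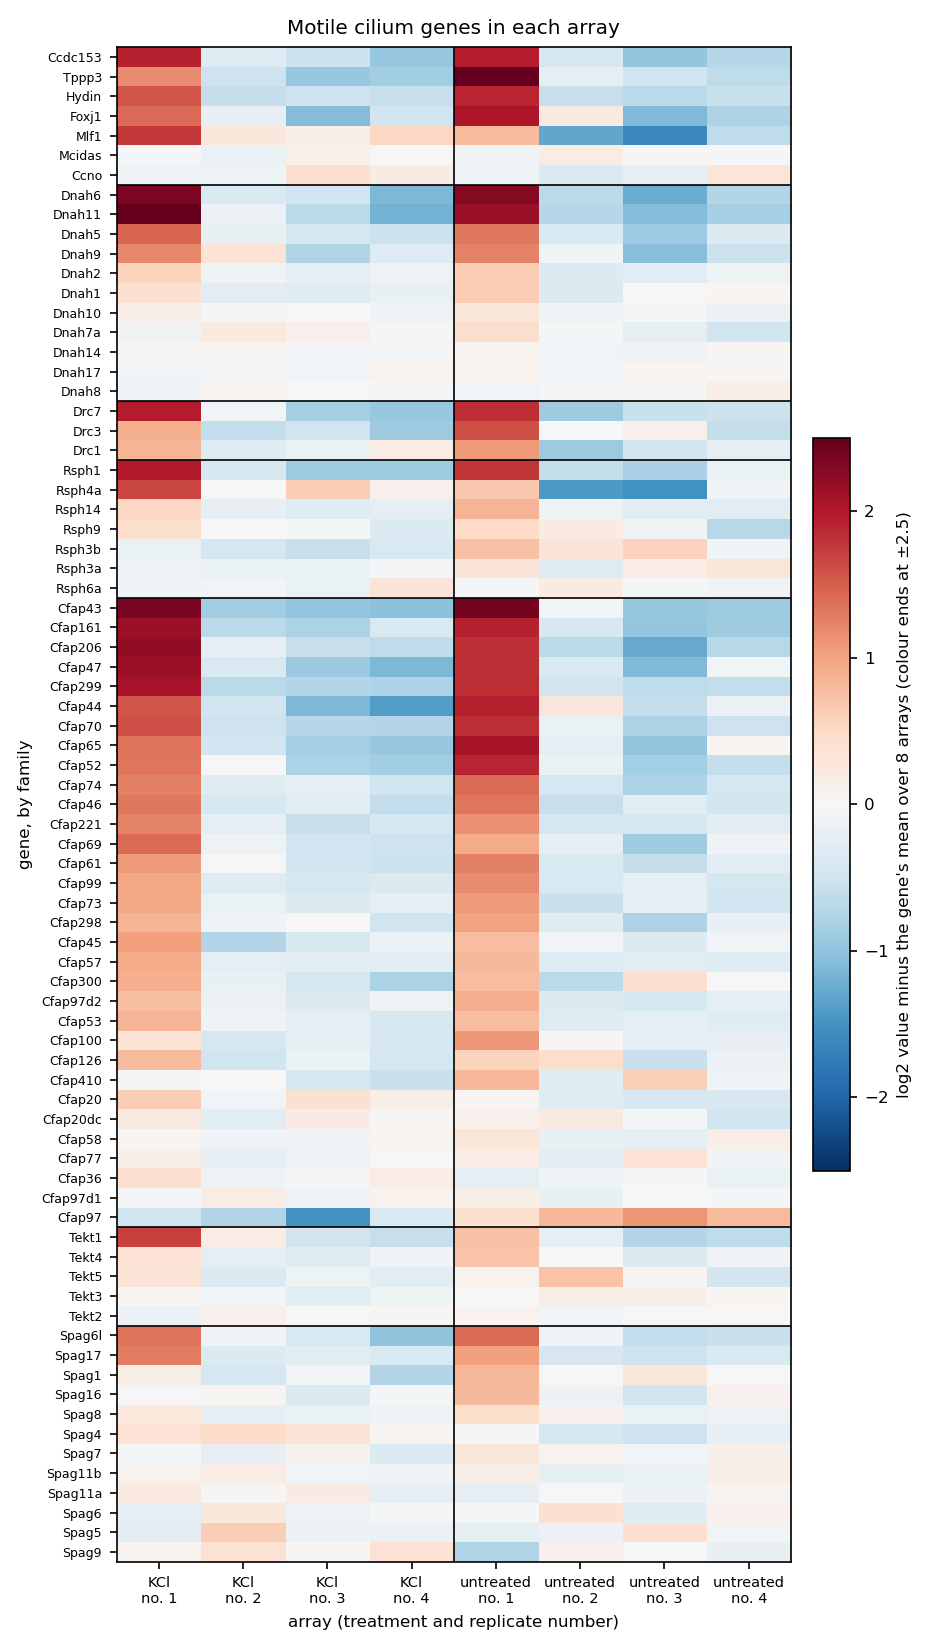
Each row is a motile cilium gene and each column an array, KCl arrays left and untreated arrays right; colour gives the log2 value minus the gene's mean over the 8 arrays, and lines separate the families. In 48 of the 77 genes both columns numbered 1 hold the highest values, while Mcidas, Ccno, Dnah8, Dnah17 and most Spag genes stay pale.

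Among the regulators, Foxj1 had log2 values of 7.46, 5.85, 4.96 and 5.57 in the KCl arrays numbered 1 to 4, against 8.07, 6.27, 4.96 and 5.27 in the untreated arrays. Both arrays numbered 1 were the highest, those numbered 2 followed, and the KCl and untreated arrays overlapped. Foxj1 differed between numbers (limma F-test, adjusted p = 0.00685). Mcidas, which acts at the start of the multiciliated programme, stood at 4.21, 4.11, 4.39 and 4.28 (KCl), against 4.16, 4.45, 4.29 and 4.23 (untreated), and no number stood out. Ccno, which acts with it in making the many basal bodies, stood at 3.99, 3.98, 4.50 and 4.30 (KCl), against 3.98, 3.74, 3.90 and 4.41 (untreated). Neither differed between numbers beyond the spread (adjusted p = 0.936 and 0.454). Both averaged below the median gene (4.26 and 4.10, against 4.76). Whether they were above background could not be assessed, so the lack of a difference may reflect a lack of signal.

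Hydin, a large protein of the central pair, had log2 values of 6.75, 4.59, 4.65 and 4.61 in the KCl arrays numbered 1 to 4, against 7.09, 4.61, 4.51 and 4.61 in the untreated arrays. The arrays numbered 1 lay more than 2 log2 units above the other 6, which spanned 4.51 to 4.65 (adjusted p = 0.00347). Ccdc153, which is widely used as an ependymal marker, showed the same split, at 7.27, 5.04, 4.81 and 4.41 (KCl), against 7.31, 4.95, 4.38 and 4.64 (untreated) (adjusted p = 0.00355). Tppp3, a tubulin polymerisation-promoting protein, stood at 8.18, 6.48, 6.06 and 6.12 (KCl), against 9.51, 6.77, 6.51 and 6.36 (untreated) (adjusted p = 0.0104).

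**Figure D2:**
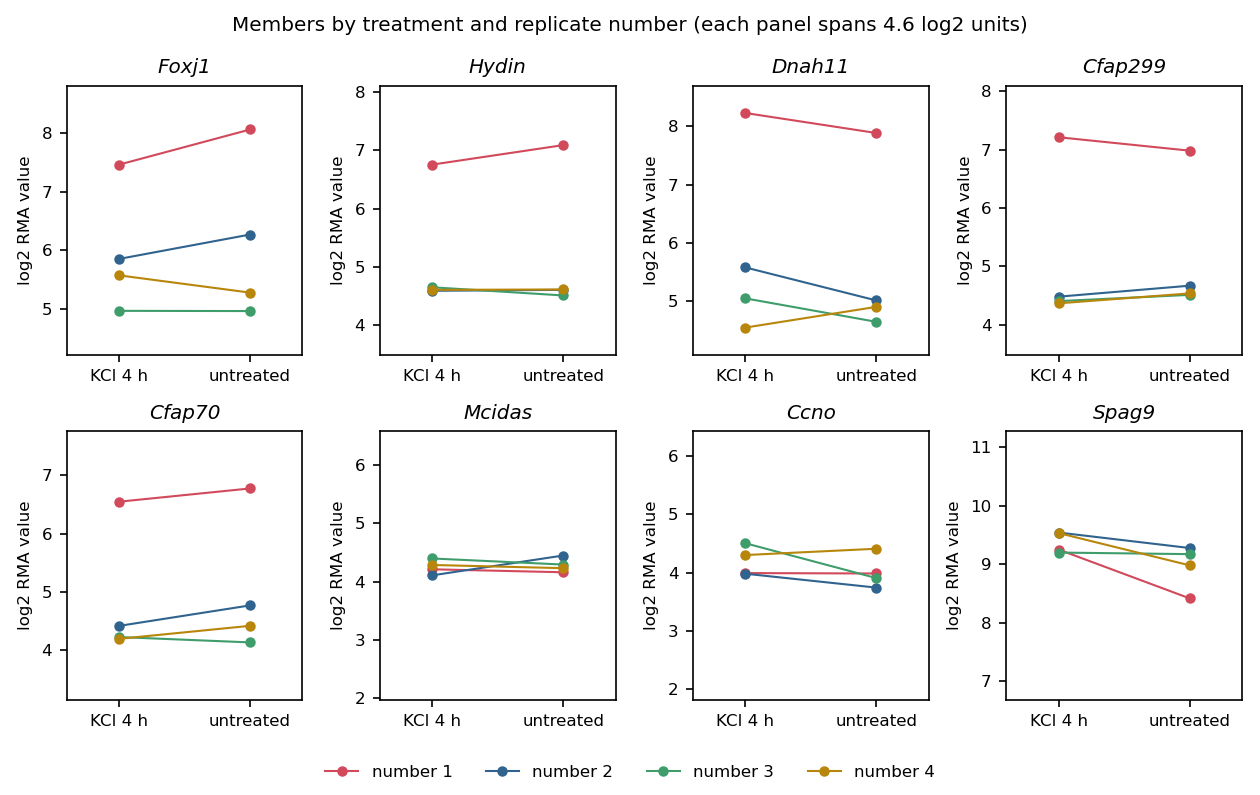
Log2 values of 8 members in KCl arrays (left of each panel) and untreated arrays (right), with a line joining the arrays of each replicate number. Number 1 lies above the other numbers for Foxj1, Hydin, Dnah11, Cfap299 and Cfap70 in both treatments, and not for Mcidas, Ccno or Spag9.

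Of the 11 dynein heavy chains, the motors themselves, 5 differed between numbers. Dnah11, of the outer arm, had 8.23, 5.58, 5.05 and 4.55 in the KCl arrays numbered 1 to 4, against 7.88, 5.02, 4.65 and 4.91 in the untreated arrays (adjusted p = 0.00378). Dnah6, of an inner arm, had 8.13, 5.39, 5.27 and 4.65 (KCl), against 8.07, 5.11, 4.53 and 5.03 (untreated) (adjusted p = 0.0046). For both genes the arrays numbered 1 exceeded the mean of the other 6 by about the same amount, 3.10 and 3.10. The outer arm chains Dnah5 and Dnah9 had values of 7.56 (KCl) and 7.43 (untreated) and of 8.49 (KCl) and 8.51 (untreated) in the arrays numbered 1, with the other 6 at 5.21 to 5.93 and 6.21 to 7.62. The fifth was the inner arm chain Dnah2, higher by 0.80 at number 1. Dnah8 and Dnah17, the outer arm chains of sperm, were flat, at 3.77 to 4.05 and 3.61 to 3.77 over all 8 arrays.

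All 3 genes of the nexin-dynein regulatory complex differed between numbers. Drc7 stood at 7.58, 5.54, 4.79 and 4.66 (KCl), against 7.45, 4.73, 5.05 and 5.08 (untreated) (adjusted p = 0.0119), Drc1 was higher by 1.28 and Drc3 by 1.67 in the arrays numbered 1. Of the 7 radial spoke genes, Rsph1 and Rsph14 differed. Rsph1, a spoke head protein, had 7.89, 5.50, 5.01 and 5.01 in the KCl arrays numbered 1 to 4, against 7.69, 5.30, 5.08 and 5.74 in the untreated arrays (adjusted p = 0.00715). Rsph9, another head protein, had both arrays numbered 1 above the others, at 7.82 (KCl) and 7.87 (untreated) against 6.68 to 7.59, but did not pass (adjusted p = 0.0759). Rsph6a, a spoke gene of sperm, spanned 4.02 to 4.50 with no number apart.

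The Cfap genes, named for cilia and flagella associated proteins, gave the largest group: 19 of 32 differed between numbers, and 24 had both arrays numbered 1 on top. Cfap299 had the smallest p of all members, with log2 values of 7.21, 4.48, 4.41 and 4.37 in the KCl arrays numbered 1 to 4, against 6.98, 4.67, 4.51 and 4.54 in the untreated arrays (adjusted p = 0.00318). The 6 arrays with other numbers spanned only 4.37 to 4.67. Cfap206, at the base of a radial spoke, had 8.45, 6.02, 5.65 and 5.59 (KCl), against 8.05, 5.55, 4.98 and 5.53 (untreated) (adjusted p = 0.00347). Cfap70, associated with the outer arms, had 6.54, 4.42, 4.23 and 4.20 (KCl), against 6.77, 4.77, 4.13 and 4.42 (untreated) (adjusted p = 0.00347). The largest excess at number 1 was 3.19, in Cfap43, which tethers an inner arm with Cfap44 (excess 2.32). Cfap161 and Cfap52, which line the inside of the doublets and whose promoters are printed above, were higher by 2.73 and 2.17. Cfap69, of the central pair, shared the pattern with an excess of 1.56 (adjusted p = 0.0254), against a median of 1.29 over the 32 Cfap genes.

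Other Cfap genes did not pass between numbers. Cfap36 was at 9.78, 9.26, 9.40 and 9.56 (KCl), against 9.14, 9.26, 9.33 and 9.20 (untreated) (adjusted p between numbers = 0.924). Cfap20, at the inner junction of the doublets, was at 9.82, 9.12, 9.57 and 9.34 (KCl), against 9.25, 8.88, 8.80 and 8.80 (untreated) (adjusted p = 0.284). Its array numbered 1 was the highest of each group, but the untreated one lay below 2 KCl arrays of other numbers. Cfap410, also linked to primary cilia, had an adjusted p of 0.501.

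Among the 5 tektins, filament proteins of the doublets, Tekt1 differed between numbers, with 7.01, 5.50, 4.86 and 4.74 (KCl), against 6.05, 5.07, 4.58 and 4.68 (untreated) (adjusted p = 0.0176). Of the 12 Spag genes, the central pair genes Spag6l and Spag17 differed. Spag17 had 5.93, 4.32, 4.38 and 4.28 (KCl), against 5.69, 4.23, 4.14 and 4.28 (untreated) (adjusted p = 0.00569), and Spag6l was higher by 1.85 at number 1 (adjusted p = 0.00715). Spag9 was at 9.25, 9.54, 9.20 and 9.53 (KCl), against 8.41, 9.28, 9.17 and 8.98 (untreated), and Spag5 and Spag4 had adjusted p between numbers of 0.713 and 0.838. In 11 of the 77 members the 8 arrays spanned less than 0.5 log2 units, and 33 members averaged below the median gene (4.76). Whether a dim member was above background could not be assessed from these values.

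Other genes of the axoneme, none of them members, were high in the same arrays. Of 17 measured factors that assemble or dock dynein arms, 11 differed between numbers (64.7%) and 13 had both arrays numbered 1 on top (76.5%). Over all genes the shares were 4.26% and 8.73%. For 41 other axonemal genes the counts were 26 (63.4%) and 34 (82.9%). For intraflagellar transport and Bardet-Biedl genes, which serve primary cilia as well, the counts were 7 and 21 of 41 (17.1% and 51.2%). Of 21 regulators of multiciliogenesis, 2 differed (9.52%, against 4.26% of all genes) and 6 had both arrays numbered 1 on top (28.6%, against 8.73%). Gmnc, which acts upstream of Mcidas, stood at 5.96, 4.28, 4.36 and 4.97 (KCl), against 6.85, 4.33, 4.13 and 4.43 (untreated) (adjusted p = 0.0334), and Rfx4 had an adjusted p of 0.0438. Rfx2, a factor of motile cilia, was at 7.57, 6.56, 6.67 and 6.51 (KCl), against 7.49, 6.05, 5.35 and 5.26 (untreated), with both arrays numbered 1 on top, and did not pass (adjusted p = 0.0765). Rfx3, another such factor, was at 9.40, 9.34, 9.35 and 9.38 (KCl), against 9.61, 9.41, 9.47 and 9.48 (untreated) (adjusted p = 0.933).

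Markers of ependymal cells, and some of the choroid plexus and of astrocytes, were high at number 1 as well. Over all genes 4.26% differed between numbers and 8.73% had both arrays numbered 1 on top. Outside the members, 8 ependymal markers were measured, of which 5 differed between numbers and 6 had both arrays numbered 1 on top, with a mean level (11 markers, 3 of them members) of 7.19 and 7.21 in the KCl and untreated arrays numbered 1 and of 5.47 to 5.95 in the other 6. Fam216b stood at 10.17, 8.11, 7.14 and 7.24 (KCl), against 9.89, 7.93, 7.18 and 7.69 (untreated) (adjusted p = 0.00399). Of 9 choroid plexus markers, Ttr, Folr1 and Clic6 differed and 3 had both arrays numbered 1 on top, with a mean of 5.54 and 5.47 at number 1 and 4.63 to 5.22 in the other 6. Ttr, transthyretin, the defining product of the choroid plexus, had 11.75, 11.00, 8.59 and 10.76 in the KCl arrays numbered 1 to 4, against 12.23, 10.94, 8.63 and 10.47 in the untreated arrays (adjusted p = 0.00355). Both arrays numbered 3 were the lowest for Ttr. They were so for 7 of 77 members as well (9.09%, against 2.56% of all genes), Foxj1 and Dnah9 among them. Kl, Aqp1, Kcne2 and Slc4a5, further choroid plexus genes, lay at 3.66 to 4.41 in all arrays. Astrocyte markers averaged 8.39 and 8.68 at number 1 and 8.04 to 8.35 in the other 6, with 4 of 8 having both arrays numbered 1 on top (50%, against 8.73% of all genes) and 1 (Aqp4) past the threshold. Neuron markers averaged 9.54 and 9.48 at number 1 and 9.75 to 10.13 in the others. Of 13, 1 had both arrays numbered 1 on top (7.69%, near the 8.73% of all genes) and 1 (Gad2) differed between numbers. Of 7 microglia, 7 oligodendrocyte lineage, 6 endothelial and 6 meningeal markers, 0, 0, 1 (Kdr) and 1 (Pdgfrb) differed between numbers. In the same order, 0, 1, 0 and 1 had both arrays numbered 1 on top. The median excess at number 1 was -0.07, 0.0009, -0.04 and 0.18. The part of these cells in the result was not tested.

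**Figure D3:**
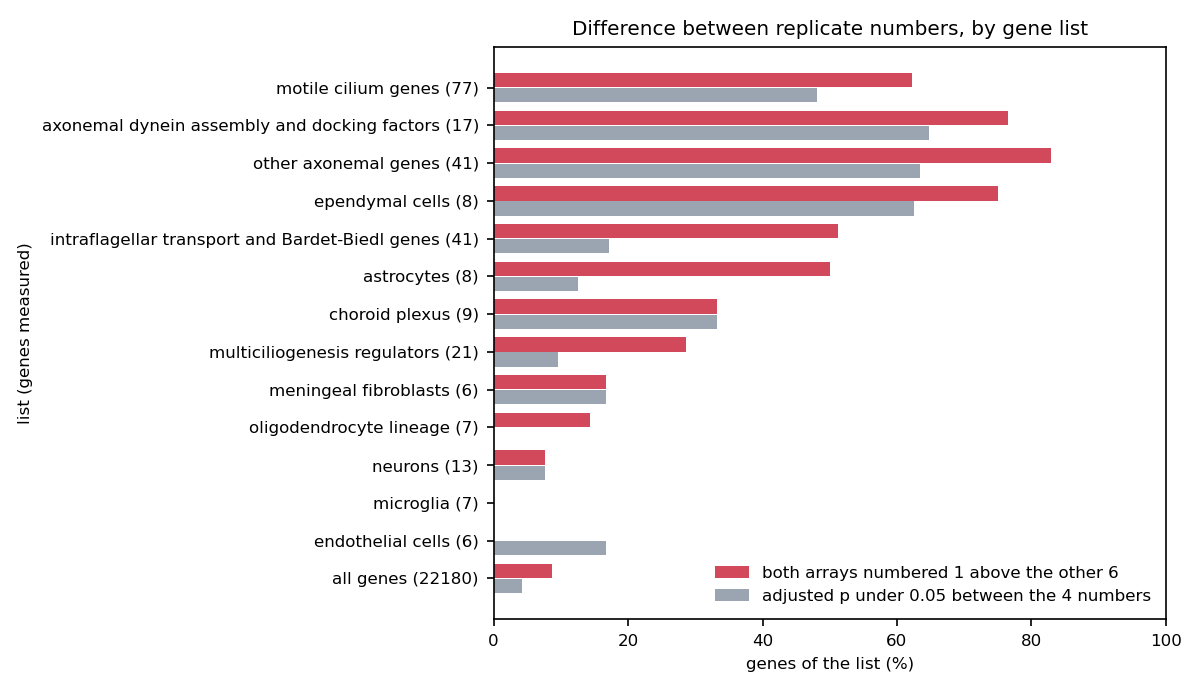
For each gene list, red bars give the percentage of its genes with both arrays numbered 1 above the other 6. Grey bars give the percentage past an adjusted p of 0.05 between the 4 replicate numbers (limma F-test). The number of genes is in brackets. Members are left out of the lists between the first and the last, while the bars of all genes include them. The motile cilium genes stand at 62.3% and 48.1%, and all genes at 8.73% and 4.26%.

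After 4 h of KCl, Mlf1 was higher and Cfap97, Rsph3b, Drc3 and Spag1 were lower. With the replicate number as a block, 1 of 77 members rose and 4 fell (limma, adjusted p under 0.05 over 22180 genes), 72 did not pass, and over all genes 2.43% rose and 2.01% fell (4.44% in all). Without the block 0 members rose and 1 fell, and over all genes 1.34% rose and 1.02% fell. At an unadjusted p under 0.05 there were 14 members (18.2%, as over all genes). Because the set was proposed with this contrast known, nothing is read from these counts. The median log2 change over the members was -0.003, against -0.01 over all genes, and 38 of 77 lay above 0, against 47.1% of all genes. All 4 KCl arrays lay above all 4 untreated arrays for 1 member (3.83% of all genes) and below them for 2 (4.33%). Higher values in 4 of 4 same-numbered pairs were seen for 8 members (11% of all genes) and lower values in 4 of 4 for 8 (13.2%). The median difference within a pair was -0.05, 0.09, 0.06 and -0.11 for numbers 1 to 4.

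Mlf1, a gene first known from a leukaemia fusion and found in ciliated cells, was the member that rose. Its log2 values were 8.47, 6.97, 6.86 and 7.22 in the KCl arrays numbered 1 to 4, against 7.50, 5.39, 5.07 and 6.07 in the untreated arrays. Every KCl array was above the untreated array of its number, yet the groups overlapped, since the untreated array numbered 1 was higher than the KCl arrays numbered 2 to 4. The means were 7.38 ± 0.74 in KCl arrays and 6.01 ± 1.08 in untreated arrays (SD, n = 4 each), a log2 change of 1.37 (SE 0.154, 2.59-fold, limma adjusted p = 0.00918). Mlf1 also differed between numbers (adjusted p = 0.0141), and without the block its adjusted p was 0.33. With each pair left out in turn it passed each time, with changes of 1.24 to 1.51.

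The stretch before the start of Mlf1 is shown because it held 3 of the motifs searched, marked in capitals: the forkhead letters TGTTTAC, then the X-box core GTTGCC, then the cyclic AMP response element TGACGTCA, a palindrome to which CREB binds. It lies at chr3:67373966-67374096 on the plus strand of GRCm38.p6 (RefSeq).
Mlf1: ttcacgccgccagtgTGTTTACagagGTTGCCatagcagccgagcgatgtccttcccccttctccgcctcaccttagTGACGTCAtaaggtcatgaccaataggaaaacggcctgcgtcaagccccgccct
The element TGACGTCA lies 54 to 47 bases before the start. It was in the promoters of 4 of 65 members (Mlf1, Spag4, Dnah6 and Spag6l), 6.15%, against 2.03% of all genes. The log2 changes after KCl were 0.60 for Spag4, 0.18 for Dnah6 and -0.06 for Spag6l, and none of these 3 passed. The motif was picked after the values were seen, and a match shows letters, not binding. Its part in the rise of Mlf1 was not tested.

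Cfap97, which fell, had log2 values of 5.90, 5.66, 4.91 and 6.02 in the KCl arrays numbered 1 to 4, against 6.80, 7.23, 7.51 and 7.19 in the untreated arrays. The groups did not overlap, and unlike most Cfap genes it showed no excess at number 1 (adjusted p between numbers = 0.921). Its log2 change was -1.56 (SE 0.266, 0.339 of the untreated level, adjusted p = 0.0292, 0.0191 without the block). The call was lost without replicate 2 (0.0881), 3 (0.0563) or 4 (0.0794).

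Rsph3b, a gene of the radial spoke stalk, had 4.69, 4.44, 4.29 and 4.48 in the KCl arrays numbered 1 to 4, against 5.60, 5.19, 5.45 and 4.76 in the untreated arrays. Again no KCl array reached the untreated ones, with means of 4.48 ± 0.167 in KCl arrays and 5.25 ± 0.368 in untreated arrays (SD, n = 4 each), a log2 change of -0.77 (SE 0.152, adjusted p = 0.0436). Its near-identical neighbour Rsph3a, whose probes may share signal with it, had a log2 change of -0.25 (adjusted p = 0.383) and, in another probe set, 0.26. Rsph3b lost its call without replicate 1 (0.127), 2 (0.117) or 3 (0.158).

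Spag1, a factor for the assembly of dynein arms, had 5.16, 4.58, 4.94 and 4.29 in the KCl arrays numbered 1 to 4, against 5.85, 5.02, 5.29 and 5.01 in the untreated arrays. It was lower after KCl in 4 of 4 pairs with overlapping groups, at a log2 change of -0.55 (SE 0.107, adjusted p = 0.042). Drc3 had 6.87, 5.36, 5.48 and 5.10 in the KCl arrays numbered 1 to 4, against 7.59, 5.97, 6.10 and 5.37 in the untreated arrays. It too was lower in 4 of 4 pairs, by a log2 change of -0.56 (SE 0.109, adjusted p = 0.0431), while the difference between number 1 and the others was larger than that. Without the block the adjusted p was 0.0776 for Rsph3b, 0.383 for Spag1 and 0.802 for Drc3. Leaving out any 1 replicate number ended the calls of Spag1 (adjusted p = 0.0974 to 0.132) and Drc3 (0.0647 to 0.173). With both arrays numbered 1 left out, 2 of the 5 genes, Mlf1 and Cfap97, kept their calls.

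**Figure D4:**
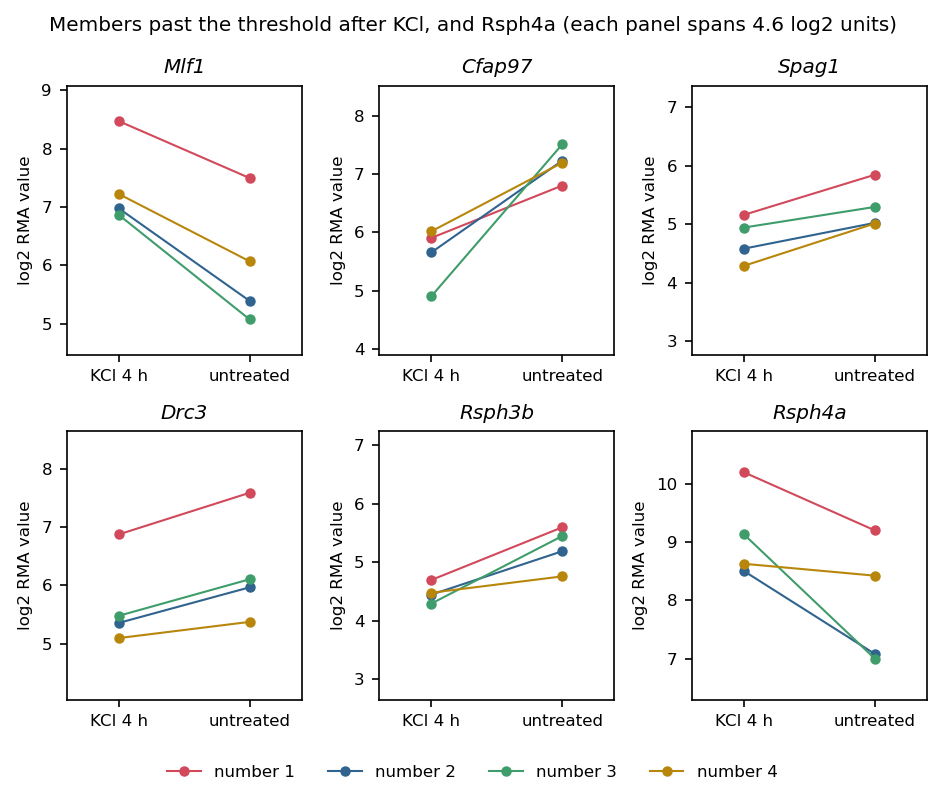
Log2 values of the 5 members past the threshold after KCl, and of Rsph4a, in KCl arrays (left) and untreated arrays (right), with a line for each replicate number. The lines of Mlf1 are lower on the untreated side in 4 of 4 pairs, and those of Cfap97, Spag1, Drc3 and Rsph3b are higher there in 4 of 4.

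Among members that did not pass, the largest rise was that of Rsph4a, a spoke head gene, at 10.19, 8.50, 9.13 and 8.62 in the KCl arrays numbered 1 to 4, against 9.20, 7.08, 7.0 and 8.42 in the untreated arrays. It was higher after KCl in 4 of 4 pairs, by a log2 change of 1.19 (SE 0.284, adjusted p = 0.0757). Rsph4a passed among genes brighter than the median gene (0.0324) and with a trended and robust variance (0.0138). The next were Spag4, the member whose 4 KCl arrays all lay above the untreated ones (5.75, 5.85, 5.71 and 5.45 (KCl), against 5.35, 4.96, 4.86 and 5.18 (untreated), log2 change 0.60, adjusted p = 0.0675), and Cfap20 (log2 change 0.53, adjusted p = 0.056). The largest falls that did not pass were Cfap44 at -0.73 (adjusted p = 0.0579), Tppp3 at -0.58 (0.173) and Cfap410 at -0.50 (0.285). Cfap44 and Tppp3 were lower in 4 of 4 pairs and Cfap410 in 3 of 4.

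The regulators and the motors were among the members without a call. Foxj1 had a log2 change of -0.18 (SE 0.163, adjusted p = 0.684), Mcidas of -0.03 and Ccno of 0.18. The 11 dynein heavy chains had changes of -0.18 to 0.24, the 5 tektins of -0.21 to 0.43 and Hydin of -0.05. A p that misses the threshold does not show that these genes stayed the same: the median SE over the members was 0.131 with the block and 0.339 without it.

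**Figure D5:**
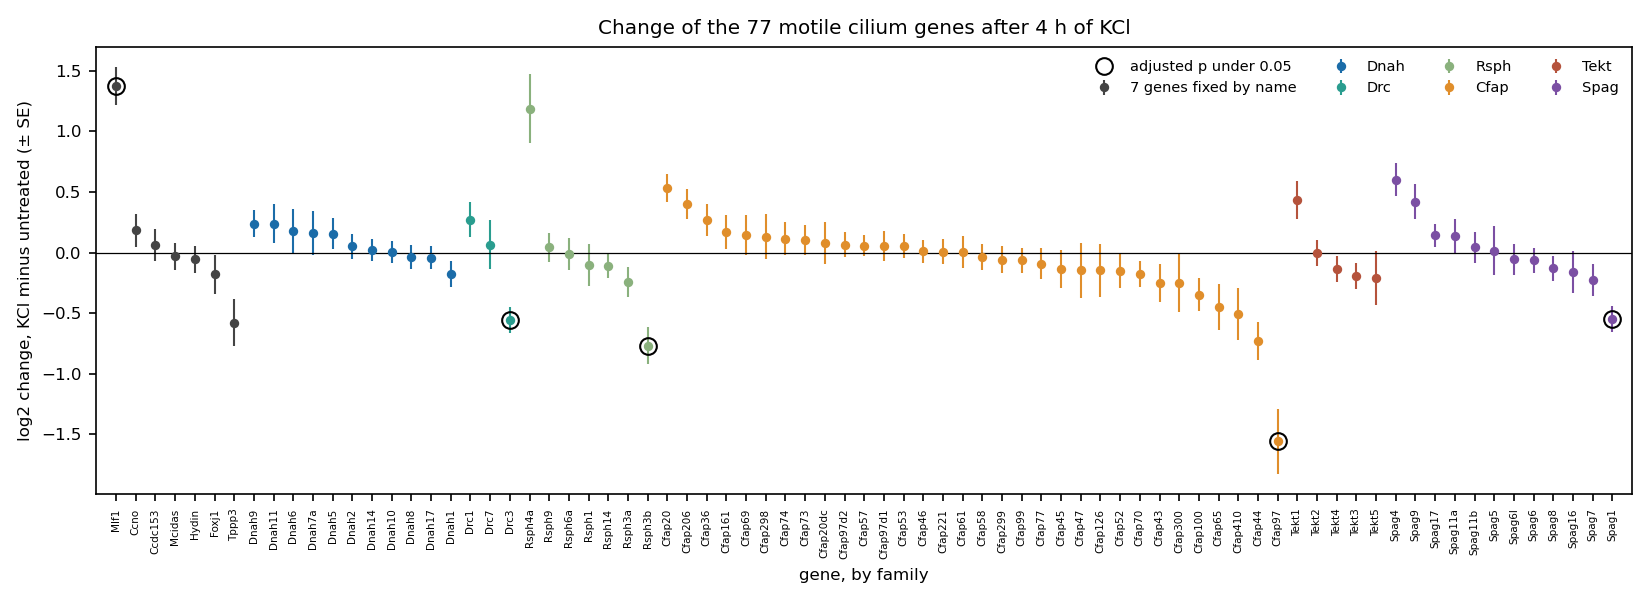
Log2 change (KCl minus untreated, ± SE) of each of the 77 motile cilium genes, coloured by family and sorted by size within it, with rings around those at an adjusted p under 0.05. Mlf1 stands at 1.37 and Cfap97 at -1.56, while the 11 Dnah genes lie between -0.18 and 0.24.

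Probe sets other than those used above gave further values. The 6 members with a dimmer probe set showed log2 changes there of 0.04 to 0.26, none past the threshold. Among them, Hydin, Dnah2 and Spag17 differed between numbers above, but their dimmer probe sets had no excess at number 1. There Hydin was at 3.85 (KCl) and 3.74 (untreated) at number 1, against 3.74 to 4.06 in the other 6 arrays. Dnah2 was at 4.20 and 4.13, against 3.91 to 4.32, and Spag17 at 3.62 and 3.55, against 3.64 to 3.92. Whether these dim probe sets were above background could not be assessed. Cfap43 shares a probe set with Itprip that stood at 6.59, 5.62, 7.0 and 7.12 in KCl arrays, against 5.05, 5.03, 4.30 and 4.98 in untreated arrays (log2 change 1.74, adjusted p = 0.0505 over all probe sets). Cfap43's own probe set had a log2 change of -0.25 and its excess at number 1, which the shared probe set did not have. That signal cannot be given to either gene. The probe set shared by Gm872 and Cfap54, a central pair gene, was at 8.83 and 9.0 in the KCl and untreated arrays numbered 1 and at 5.21 to 6.79 in the other 6. The probe set shared by Dnah7a, Dnah7b and Dnah7c was at 7.19 and 6.93 and at 4.72 to 5.35 in the same way, while the probe set of Dnah7a alone spanned 3.53 to 4.46 and did not differ between numbers beyond the spread (adjusted p = 0.773).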

How the data were processed

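Whole-transcript Affymetrix arrays measured RNA of 4 KCl-treated and 4 untreated cultures. The deposited values are log2 RMA values, made by the authors with Partek per the submitters' processing notes; software versions and the array's genome build are not given in the sources used here, so no array coordinates are printed. RNA was amplified and labelled with the WT Plus kit per the labels' protocols. Of 34472 probe sets, 23521 carry 1 gene symbol in the platform annotation, 1814 carry several and 9137 none; the brightest single-symbol probe set was used for each of 22180 genes, and all 77 members matched RefSeq.

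Every gene was fitted in limma 3.58.1 (R 4.3.3) on treatment with the replicate number as a block (3 residual degrees of freedom), with Benjamini-Hochberg adjustment over 22180 genes and a threshold of 0.05. The difference between numbers is limma's moderated F-test of the number terms in that model. The rule that defined the motile cilium genes names the replicate number as a block, so the fit with it is the main one. Same-numbered arrays also deviated together from their group means over all genes. There r was 0.638, 0.234, 0.409 and 0.368 for numbers 1 to 4, and at most 0.302 for any other pair. Over the members r was 0.931, 0.376, 0.704 and 0.597, but other pairs reached 0.729 (KCl number 4 with untreated number 3). This joint deviation is read from the data. Same-numbered arrays have mouse numbers close to each other, but the labels name nothing that they share. Because nothing says that replicates came from separate litters, p-values measure only the spread between these samples. The fit was tested on simulated data.

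The members and gene lists were chosen with earlier results of these data known. Named by rule were members past the threshold, the 7 genes fixed by name, the 3 largest rises and falls that did not pass, the 6 brightest members, the 4 of smallest p between numbers, and other list genes past the threshold. Further members were named after their values were seen, and so were the motifs chosen. Promoters are from RefSeq (GRCm38.p6), 250 bases before to 50 after each start. Alternatives were another normalization, probe set rule, brightness filter, variance model, array weights, a minimum 1.5-fold change, no replicate block, and each number left out.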

Additional observations from a re-analysis of the deposited data

Results flagged for a closer look

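Among the genes named in the text, and a few other members and list genes, an array stood far from the other 3 of its group by Dixon's criterion in 19 cases. Chance meets this criterion in about 1 in 20 groups. In all but 1 of the 19 it was an array numbered 1 that was high. Among KCl arrays these were Cfap161 at 7.85 (others 4.90 to 5.31), Cfap206 at 8.45, Cfap299 at 7.21, Cfap70 at 6.54, Hydin at 6.75, Rsph1 at 7.89, Spag17 at 5.93 and Rfx2, a factor of motile cilia, at 7.57. Among untreated arrays they were Cfap20 at 9.25, Cfap299 at 6.98, Dnah11 at 7.88, Dnah6 at 8.07, Drc7 at 7.45, Hydin at 7.09, Spag17 at 5.69, Tppp3 at 9.51, Gmnc at 6.85 and Ift81 at 7.85. The exception was Stil, low at 4.14 in the untreated array numbered 4 (others 4.46 to 4.52). Over all 77 members, named or not, the criterion was met by 14 of 77 in KCl arrays, 13 of them for a high array numbered 1, against 5.66% of all genes, and by 18 in untreated arrays, 17 of them for a high array numbered 1, against 6.03% of all genes.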

How the results depend on the processing

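The number of members that changed after KCl, 5 as reported, was 1 with no replicate block, 2 with all probe sets tested, 0 with a minimum change of 1.5-fold, and 1 to 2 without 1 replicate number. Among genes brighter than the median gene it was 7 of the 44 members tested (2 higher, 5 lower), where 1119 of 11090 genes passed. Over all genes, 985 as reported became 524 with no replicate block, 71 with a minimum change of 1.5-fold (66 higher, 5 lower), and 146 to 538 without 1 replicate number. Under no replicate block Cfap97 was the member that passed. The 37 members that differed between numbers were 0 without replicate 1 and 34 to 37 without another number, giving a range of 0 to 37. Among genes brighter than the median gene they were 29 of the 44 members tested, against 8.97% of all such genes. Under the other alternatives they were 35 to 43 of 77. The count of members with both arrays numbered 1 on top was 47 to 48 under another probe set rule or normalization. The sign of the log2 change turned for Ccdc153 without replicate 3 (range without 1 number -0.063 to 0.16), Hydin without replicate 1 (-0.12 to 0.039), Spag6l without replicate 4 (-0.16 to 0.074), and Mcidas without replicate 2 (-0.078 to 0.070) and with each array centred on its median gene (0.0012); none of these 4 genes passed. Calls were gained by Cfap20 with centred arrays (0.0493) and a trended variance (0.0306), Cfap44 after repeated quantile normalization (0.0456) and among brighter genes (0.0366), and Spag4 after repeated quantile normalization (0.0448). Under the same settings calls were lost by Drc3 (0.0777 after quantile normalization, 0.051 with centred arrays, 0.117 with a trended variance), Spag1 (0.061 after quantile normalization, 0.0751 with a trended variance) and Rsph3b (0.0509 with centred arrays). The split of 1 higher and 4 lower members became 2 and 2 with centred arrays, 2 and 3 after quantile normalization, and 3 and 2 with a trended variance. Where a cause is not evident from fewer arrays or fewer genes, the cause was not tested. With 4 arrays a group and 33 members below the median gene, small changes of dim members could not be resolved.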

Other observations

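Ttc21b had log2 values of 4.73, 4.80, 4.99 and 4.84 (KCl), against 6.18, 6.55, 7.34 and 6.54 (untreated), a log2 change of -1.81 (limma adjusted p = 0.00365, 0.00662 without the block). It is a subunit of the retrograde intraflagellar transport complex, and its groups did not overlap. Ift81, of the anterograde complex, had a log2 change of -0.70 (adjusted p = 0.0436, 0.404 without the block), and the other 39 of 41 intraflagellar transport and Bardet-Biedl genes did not pass (4.44% of all genes did). Of 21 multiciliogenesis regulators, Stil, a centriole duplication gene, rose: Stil had log2 values of 5.29, 6.43, 5.70 and 5.93 (KCl), against 4.46, 4.46, 4.52 and 4.14 (untreated), a log2 change of 1.44 (limma adjusted p = 0.0169, 0.0171 without the block). Of 17 dynein arm assembly and docking factors, Pih1d1, a chaperone cofactor, fell by a log2 change of -0.63 (adjusted p = 0.0386, 0.516 without the block), and 0 of 41 other axonemal genes passed. Leaving out any 1 replicate number ended the calls of Ift81 (adjusted p = 0.0822 to 0.136) and Pih1d1 (0.0739 to 0.142), and leaving out number 3 (0.0729) or 4 (0.0693) ended that of Stil, while Ttc21b passed in all 4 such fits.

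Of 11 ependymal markers, 1110017D15Rik rose: 1110017D15Rik had log2 values of 6.06, 5.88, 6.11 and 6.31 (KCl), against 5.26, 4.48, 4.95 and 4.58 (untreated), a log2 change of 1.27 (limma adjusted p = 0.0123, 0.0127 without the block). It did not differ between replicate numbers beyond the spread (adjusted p = 0.611), and its call was lost without number 3 (0.0678). Of 13 neuron markers, Gad2, which makes GABA, fell by a log2 change of -0.49 (adjusted p = 0.0458, 0.832 without the block). Its values were 6.70, 7.87, 8.54 and 8.29 (KCl), against 7.17, 8.18, 9.15 and 8.85 (untreated), so that the arrays numbered 1, where motile cilium genes were highest, held the lowest Gad2 (adjusted p between numbers = 0.0046). Its KCl call was lost when any 1 number was left out (0.0872 to 0.185). No choroid plexus, astrocyte, oligodendrocyte lineage, microglia, endothelial or meningeal marker passed after KCl.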
